A study of Schizosaccharomyces pombe with 8 samples.

Results

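The genes pma1, mae1 and exg1 of the fission yeast Schizosaccharomyces pombe encode proteins of the cell surface. They are 3 of the 527 genes in the deposited table, and they were chosen by their names and by their lower counts in total RNA of slr1- cells. The first group was slr1- cells, labelled as a knockout (KO), with total RNA and polysome RNA libraries. The second group was WT cells of strain yAS99, with the same 2 kinds of RNA. All groups were grown in YES, a rich yeast extract medium, at 32 °C with shaking at 200 rpm, and all carry the same treatment label of 100 µg/mL cycloheximide, an inhibitor that holds ribosomes on mRNA. Each of the 4 groups had 2 libraries, labelled as biological replicates with no word on separate cultures, and the p-values below rest on the spread among these libraries, which may be technical. The labels do not say whether the slr1- cells came from more than a single clone, nor whether polysome and total RNA of a replicate number came from the same culture.

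Slr1p is the fission yeast counterpart of LARP1, an RNA-binding protein known in animals for its contact with mRNAs of the translation machinery. The yeast plasma membrane is energised by Pma1, a P-type ATPase that pumps protons out of the cell at the cost of ATP. The resulting proton gradient drives nutrient uptake by symporters, and Mae1, which brings in malate and other dicarboxylic acids together with protons, is such a carrier in S. pombe. Exg1 is a secreted glucosidase that acts on the β-glucan of the cell wall, the polymer that gives the wall its strength. All 3 proteins are delivered to the surface through the secretory pathway.

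The identifiers are SPAC1071.10c.1 (pma1), SPAPB8E5.03.1 (mae1) and SPBC1105.05.1 (exg1). In the RefSeq annotation of assembly ASM294v3 pma1 lies on the minus strand of chromosome I (chrI:3871642-3876111), mae1 on the plus strand of chromosome I (chrI:4912249-4914182) and exg1 on the plus strand of chromosome II (chrII:3514604-3516567). The build used for the deposited counts is not given in the sources used here. Each gene is a single exon. The annotated pma1 transcript has 4470 bases, with 2760 coding bases and a 5′ leader (the untranslated stretch before the start codon) of 1432 bases. The mae1 transcript has 1934 bases, 1317 of them coding, and a leader of 48 bases. The exg1 transcript has 1964 bases, 1224 of them coding, and a leader of 534 bases.

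The 3 genes differ in this leader. The pma1 leader is the longest among 515 listed genes with an annotated transcript and the 23rd longest among 5113 protein-coding genes of the assembly. The exg1 leader ranks 10th among the 515, of which 12 have a leader of at least 500 bases, and the mae1 leader is close to the median of 40 bases. Long leaders can hold upstream start codons that catch scanning ribosomes. The pma1 leader contains 1 ATG in its 1432 bases, and the leaders of mae1 and exg1 contain 0. Among the 515 listed genes 16, or 3.11%, have an ATG in the leader, against 1637 of the 5113 genes of the assembly, or 32.0%.

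The 30 bases around each annotated transcript start are shown because LARP1 in animals reads the first bases of an mRNA, a C followed by a run of pyrimidines (C or T in DNA) known as the 5′TOP motif. Capitals mark the 20 bases from the annotated start on, and the 10 bases in lower case lie before it.
pma1, chrI:3876092-3876121, minus strand: agttcctttcAAGCCCGCGTTTTTGGAATT
mae1, chrI:4912239-4912268, plus strand: cattttctctCTTGGCCACTATTTTTTTTT
exg1, chrII:3514594-3514623, plus strand: cctttgttccATTGTTTAATTCAAAGACGA
The pma1 and exg1 transcripts start with A as annotated. The mae1 transcript starts with C, but only 2 pyrimidines follow. In each gene pyrimidines also lie directly before the annotated start. A start some bases earlier would read otherwise, and the starts were not checked here. A C followed by at least 4 pyrimidines was found at 0.388% of the 515 listed starts and 0.293% of the 5113 starts of the assembly.

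The 250 bases before each start are shown to describe the promoters. The 3 genes were chosen for being lower in slr1- total RNA, so no shared control is read from that. Capitals mark matches, on either strand, to CCAAT, the element of the CCAAT-binding complex, and to the TATA box letters TATAAA. In exg1 an inverted CCAAT directly adjoins the TATAAA and both are in the same run of capitals.
pma1, chrI:3876112-3876361, minus strand: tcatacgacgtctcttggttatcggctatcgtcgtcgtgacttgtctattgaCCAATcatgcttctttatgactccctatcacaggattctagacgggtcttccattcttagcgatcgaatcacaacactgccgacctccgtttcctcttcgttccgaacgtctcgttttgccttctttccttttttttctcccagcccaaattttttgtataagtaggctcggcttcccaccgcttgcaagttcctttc
mae1, chrI:4911999-4912248, plus strand: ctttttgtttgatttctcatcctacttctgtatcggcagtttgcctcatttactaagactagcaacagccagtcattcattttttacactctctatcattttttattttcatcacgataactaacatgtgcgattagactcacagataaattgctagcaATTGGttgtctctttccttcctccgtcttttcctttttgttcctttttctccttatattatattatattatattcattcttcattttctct
exg1, chrII:3514354-3514603, plus strand: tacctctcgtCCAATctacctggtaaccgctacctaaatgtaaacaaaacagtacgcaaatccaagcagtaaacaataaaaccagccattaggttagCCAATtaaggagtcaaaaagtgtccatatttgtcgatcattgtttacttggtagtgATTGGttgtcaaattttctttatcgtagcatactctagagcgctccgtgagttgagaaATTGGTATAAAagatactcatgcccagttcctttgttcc
The pma1 promoter has 1 CCAAT at 198 bases before the start. The mae1 promoter has 1 inverted CCAAT at 91 bases. The exg1 promoter has 4 matches, at 240, 153, 97 and 39 bases, and the TATAAA at 34 bases. A CCAAT on either strand occurs in 36.9% of the 515 listed promoters and 35.3% of the 5113 promoters of the assembly, and TATAAA in 38.8% and 44.4%. The HomolD box CAGTCACA, which marks promoters of ribosomal protein genes in S. pombe, is in none of the 3 windows, against 19.6% of the listed promoters and 2.62% of those of the assembly. These matches describe letters and do not show that a factor binds.

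The deposited counts summed to between 550490 and 1110838 per library over the listed genes, which is part of a library and not its depth. The slr1 gene itself, which would check the knockout labels, is not analysed here. Genes of ribosomal proteins were taken by name (rpl, rps, rpp1 and rpp2). Thus rpp0 and the ubiquitin fusion genes ubi3 and ubi5 count among the other genes throughout. The genes so taken held 53.8% and 49.8% of the listed counts in slr1- total RNA, against 45.0% and 44.8% in WT total RNA. In polysome RNA they held 41.4% and 42.6% in slr1- libraries, against 37.4% and 37.6% in WT libraries. The part of this shift in the results was not tested. All values are relative to the listed genes, and in bulk RNA fewer cells with an mRNA and less of it per cell cannot be told apart. Counts ranged between 280 and 879 for pma1, 144 and 385 for mae1, and 155 and 378 for exg1. Normalised counts below are counts divided by TMM-scaled library sizes and multiplied by their mean. None of the 50-base windows of the 3 transcripts (4421, 1885 and 1915 windows) occurs elsewhere in the assembly, so reads of 50 bases without errors would have a single place there. That includes the related proton pump gene pma2, which is not analysed here. On the opposite strand, an annotated lncRNA overlaps 450 bases of the pma1 leader, another covers the whole coding part of mae1, and npc2 overlaps 212 bases of the mae1 trailer. In exg1, 2 antisense lncRNAs overlap 163 bases of the leader and 276 coding bases. The library kit keeps strand, but whether strand was used in counting is not given in the sources used here.

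In total RNA the pma1 mRNA had 229 and 324 normalised counts in slr1- libraries, against 879 and 462 in WT libraries. Both slr1- libraries lie below both WT libraries, but replicate 1 of WT stands far above replicate 2. Their 1.90-fold ratio is the second largest between the WT total RNA replicates among 527 genes. The mean was 277 ± 67.2 in slr1- and 671 ± 295 in WT (SD, n = 2 each), a log2 fold change of -1.28 ± 0.27 (SE of the edgeR fit). Without replicate 1 of WT it was -0.74, and without replicate 2 of WT -1.67.

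The mae1 mRNA had 195 and 212 normalised counts in slr1- total RNA, against 385 and 339 in WT total RNA. Here the replicates lie close together and the strains far apart. The mean was 204 ± 12.3 in slr1- and 362 ± 32.5 in WT (SD, n = 2 each), a log2 fold change of -0.83 ± 0.16 SE. With TMM factors computed without the 125 ribosomal protein genes it was -0.50. These factors move the median of all genes by 0.34.

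The exg1 mRNA had 134 and 186 normalised counts in slr1- total RNA, against 326 and 374 in WT total RNA. The highest slr1- library is lower than the lowest WT library by more than the gap between replicates of either strain. The mean was 160 ± 37.2 in slr1- and 350 ± 33.8 in WT (SD, n = 2 each), a log2 fold change of -1.13 ± 0.20 SE.

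These total RNA values are the ones that chose the 3 genes, so they are given with no test. Among 527 genes, pma1 was the 3rd and exg1 the 7th in the order of log2 fold changes from the lowest. The neighbours of pma1 were SPMIT.03 (-1.34) and SPMIT.08 (-1.19), and those of exg1 were rpc10 (-1.18) and ser1 (-1.11). With -0.83, mae1 was 53rd, between SPMIT.02 (-0.83) and nop56 (-0.83). For comparison, 177 genes, 33.6% of the 527, were called lower and 104, 19.7%, higher in slr1- total RNA (edgeR quasi-likelihood test, Benjamini-Hochberg adjusted p under 0.05). The lowered gene just inside that threshold was lsm6 (-0.50) and the next outside it was srs1 (-0.36). The groups did not overlap, with slr1- lower, for all 3 genes and for 47.8% of the 527. The authors' deposited table gives log2 fold changes of -1.27 for pma1, -0.82 for mae1 and -1.13 for exg1.

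**Figure D1:**
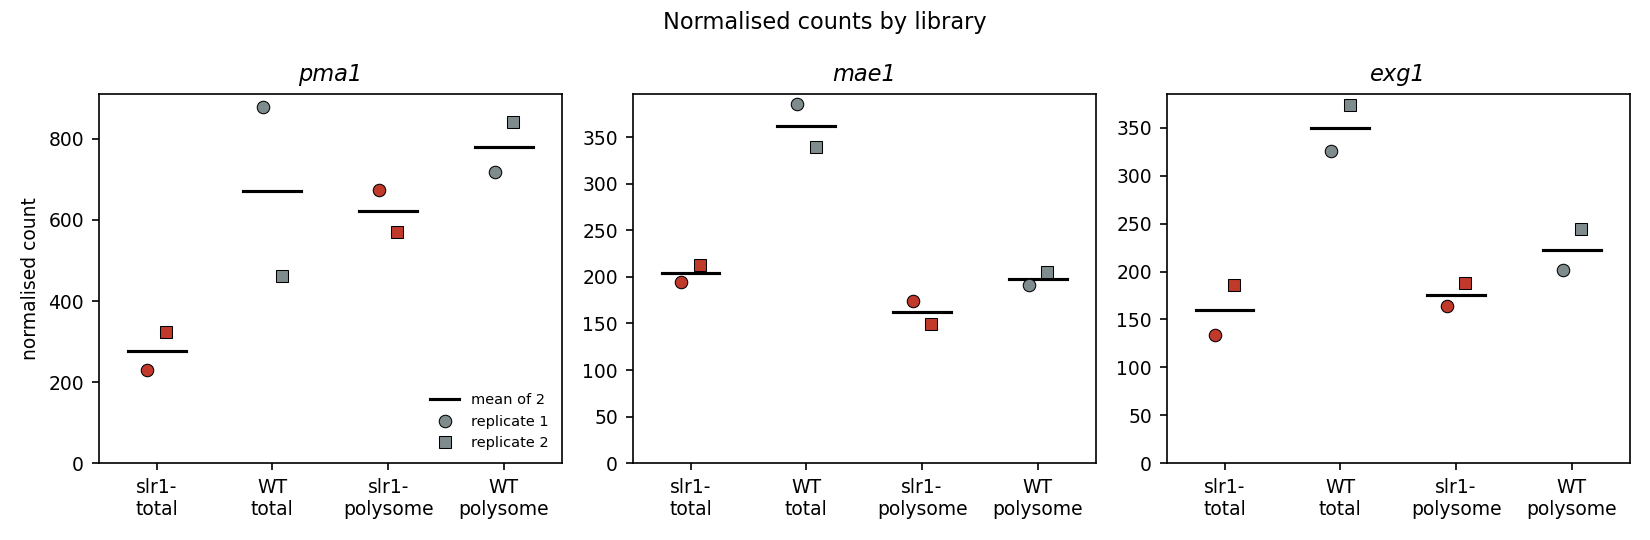
Normalised counts (vertical axes, each starting at 0) of pma1, mae1 and exg1 in the 8 libraries, slr1- in red and WT in grey, with circles for replicate 1, squares for replicate 2 and a line at the mean of 2. In total RNA both slr1- libraries lie below both WT libraries for each gene, and the 2 WT total RNA libraries of pma1, at 879 and 462, are the widest pair.

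Polysome RNA is the mRNA carried by several ribosomes, and its libraries were not used to choose the genes. There the distance between the strains was smaller and no gene passed the test. The pma1 mRNA had 675 and 569 normalised counts in slr1- polysome RNA, against 718 and 841 in WT polysome RNA. The slr1- libraries are again the lower pair, and the gap between the strains is narrower than the gap between replicates of either strain. The means were 622 ± 74.6 in slr1- and 779 ± 87.0 in WT (SD, n = 2 each), a log2 fold change of -0.32 ± 0.26 SE that did not pass the edgeR quasi-likelihood test (adjusted p = 0.514). Its 95% interval runs between -0.91 and 0.26.

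For mae1 the polysome values were 175 and 149 normalised counts in slr1-, against 191 and 205 in WT. The 2 groups do not overlap, and their gap is narrower than that between the slr1- replicates. The means were 162 ± 17.8 in slr1- and 198 ± 9.72 in WT (SD, n = 2 each), with a log2 fold change of -0.29 ± 0.17 SE (edgeR adjusted p = 0.393, 95% interval between -0.67 and 0.087).

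For exg1 they were 164 and 188 normalised counts in slr1-, against 201 and 244 in WT. These groups do not overlap either, and both spreads are wider than the gap between them. The means were 176 ± 16.8 in slr1- and 223 ± 30.4 in WT (SD, n = 2 each), with a log2 fold change of -0.34 ± 0.20 SE (edgeR adjusted p = 0.393, 95% interval between -0.79 and 0.11).

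In polysome RNA 0 of the 3 genes passed after adjustment, as did 0 of all 527 genes, or 0%. At an unadjusted p under 0.05 the count was 0 of the 3 genes against 100 of 527, or 19.0%, and DESeq2 called 12 of the 527 and 0 of the 3. The slr1- libraries were lower without overlap for all 3 genes and for 30.6% of the 527. Their log2 fold changes ranked 49th (exg1), 52nd (pma1) and 63rd (mae1) from the lowest. Each interval includes 0 and runs down to its lower bound. With 2 libraries per group neither no change nor a fall of that size is excluded.

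**Figure D2:**
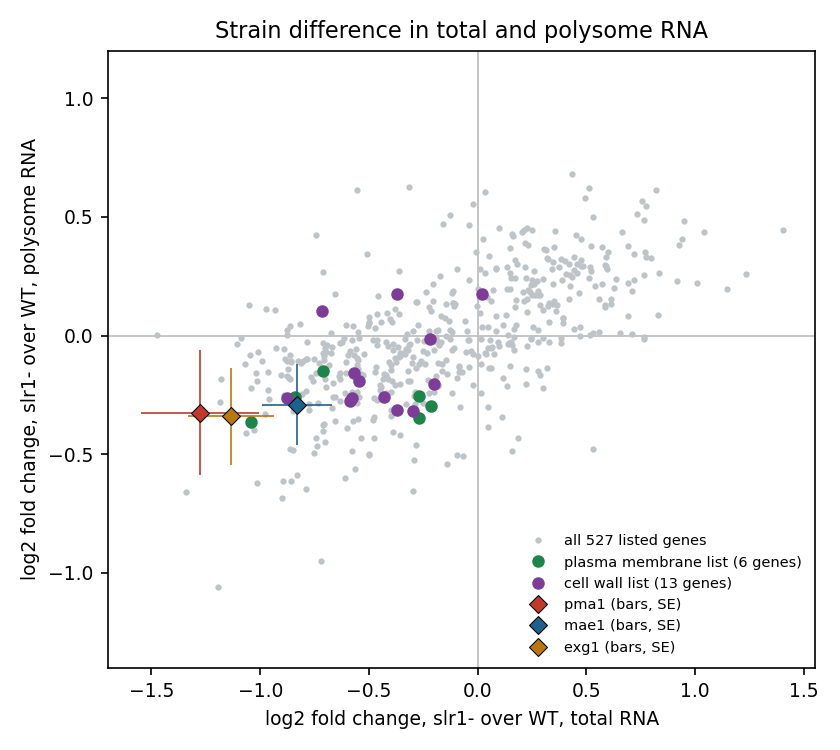
Log2 fold change of slr1- over WT in total RNA (horizontal axis) and in polysome RNA (vertical axis) for 527 genes, with the plasma membrane list in green, the cell wall list in purple and bars of 1 SE on pma1, mae1 and exg1. The 3 genes lie between -1.28 and -0.83 in total RNA and between -0.34 and -0.29 in polysome RNA.

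The level of polysome RNA relative to total RNA was higher in slr1- than in WT in the fitted values, by 0.95 ± 0.38 on the log2 scale for pma1, 0.54 ± 0.23 for mae1 and 0.79 ± 0.28 for exg1 (SE). The median of this difference was 0.15 over all 527 genes and 0.24 over those not of ribosomal proteins, so part of it is common to the table. From the highest, pma1 ranked 12th, exg1 31st and mae1 97th. These differences contain the total RNA values that chose the genes and are given with no test. The ratio was also taken by replicate number, although the labels do not say that a number joins 2 libraries. For exg1 it was 1.23 and 1.01 in slr1-, against 0.617 and 0.654 in WT. For mae1 it was 0.895 and 0.703 in slr1-, against 0.496 and 0.604 in WT. In both genes each slr1- ratio exceeds each WT ratio, as in 40.4% of the 527 genes.

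For pma1 the ratio was 2.94 and 1.75 in slr1-, against 0.816 and 1.82 in WT. The strains overlap, since replicate 2 gave nearly the same ratio in slr1- and WT, while replicate 1 gave a far higher ratio in slr1-. The fitted difference was 0.42 without replicate 1 of WT total RNA and 1.34 without replicate 2. In the authors' deposited table the same ratio of ratios, slr1- over WT, is 3.14 and 0.98 for pma1, 1.57 and 1.19 for mae1, and 1.73 and 1.57 for exg1.

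**Figure D3:**
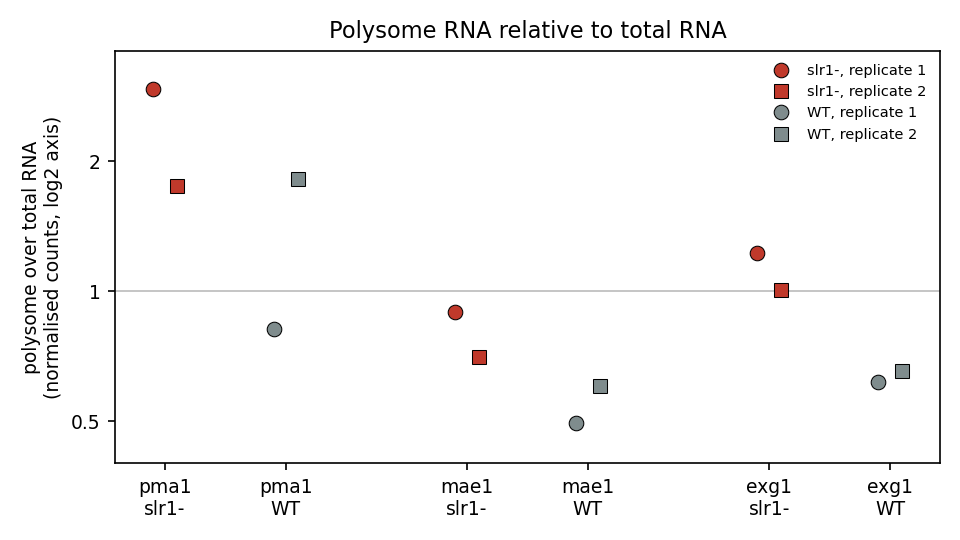
Ratio of normalised counts in polysome RNA to total RNA of the same replicate number (vertical axis, log2 scale) for each gene and strain, slr1- in red and WT in grey. The slr1- ratios lie above the WT ratios for mae1 and exg1, while for pma1 the slr1- ratios of 2.94 and 1.75 overlap with the WT ratios of 0.816 and 1.82.

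From the lowest mean normalised count up, pma1 had 277 in total RNA and 622 in polysome RNA of slr1- cells, then 671 in total RNA and 779 in polysome RNA of WT cells. The 2 WT total RNA libraries of pma1 span the values of both polysome groups, so the upper 3 levels cannot be ordered beyond their spread. The lowest mean of mae1 was in polysome RNA, with 162 in slr1- and 198 in WT, followed by total RNA with 204 in slr1- and 362 in WT. Libraries overlapped between the middle pair. The lowest means of exg1 were in slr1-, with 160 in total and 176 in polysome RNA, whose libraries overlapped, followed by 223 in polysome RNA and 350 in total RNA of WT. Order between polysome and total RNA depends on the scaling. The log2 ratio of polysome to total RNA in slr1- was -0.33 for mae1 and 0.14 for exg1. It was 0.073 for mae1 where libraries were scaled by size alone, and -0.23 for exg1 with TMM factors computed without ribosomal protein genes. Without replicate 1 of slr1- total RNA the exg1 ratio was -0.082.

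Per kilobase of annotated transcript, the level of pma1 was 62.0 ± 15.0 normalised counts in slr1- total RNA and 150 ± 66.0 in WT total RNA (SD, n = 2 each). On that scale mae1 had 105 ± 6.35 in slr1- and 187 ± 16.8 in WT, and exg1 had 81.4 ± 18.9 in slr1- and 178 ± 17.2 in WT total RNA (SD, n = 2 each). From the highest of 515 genes, pma1 ranked 503rd in slr1- and 466th in WT, mae1 459th in slr1- and 428th in WT, and exg1 481st in slr1- and 442nd in WT. All 3 are thus among the less abundant of the listed mRNAs per length, in either strain.

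Over the 8 libraries the log2 CPM (counts scaled to a common library size) of mae1 and exg1 followed each other (Pearson r = 0.82), and pma1 followed exg1 (r = 0.49) and mae1 (r = 0.17) less closely. All such values rest on the same 8 libraries and 4 group means and are descriptions. The genes most like pma1 among the other 526 were mrs1, annotated as an arginine-tRNA ligase (r = 0.94), the peptide transporter gene ptr2 (r = 0.94) and pex7 of peroxisomal import (r = 0.93). Those most like mae1 were ura3 of pyrimidine synthesis (r = 0.97), the glutathione reductase gene pgr1 (r = 0.97) and the protein disulfide isomerase gene pdi1 (r = 0.94). Those most like exg1 were cpy1, which encodes a vacuolar carboxypeptidase (r = 0.94), knh4 (r = 0.92) and dss1 (r = 0.90).

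The surroundings of the 3 genes were read from 5 lists of other surface, secretory and metabolic genes. Each total RNA count below is to be read beside the shares over all 527 genes, 33.6% lower and 19.7% higher. With TMM factors computed without ribosomal protein genes, 72 of the 527 were lower and 180 higher, and the median was 0.15. Of 58 genes written into a plasma membrane list 6 are in the table, and 3 of them fell in slr1- total RNA, 0 rose and 3 did not pass. The phosphate transporter gene pho84 fell by 1.04 on the log2 scale (± 0.25 SE, edgeR adjusted p = 0.00648). The peptide transporter gene ptr2 fell by 0.84 (± 0.20, edgeR adjusted p = 0.00702) and the phosphate transporter gene pho842 by 0.71 (± 0.18, edgeR adjusted p = 0.00903). These 3 are transporters, as is vht1 for the vitamin biotin, whose value of -0.27 ± 0.31 did not pass. Neither pil1, which builds the eisosomes under the membrane (-0.27 ± 0.13), nor the proteolipid gene pmp3 (-0.21 ± 0.15) passed.

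Without replicate 1 of slr1- total RNA the calls of pho84 (-0.78), ptr2 (-0.57) and pho842 (-0.64) were all lost, and 0 of the 6 genes passed. The pho842 call was also lost with TMM factors computed without ribosomal protein genes (-0.38). The list median was -0.49 in total RNA and -0.28 in polysome RNA, against -0.19 and -0.027 for all 527 genes, and -0.36 and -0.087 for those not of ribosomal proteins. None of the 5 lists holds a ribosomal protein gene. In polysome RNA all 6 values were negative and 0 passed, from pho84 at -0.36 ± 0.25 to pho842 at -0.15 ± 0.18. With TMM factors computed without ribosomal protein genes 3 of the 6 total RNA values stayed negative. The list median was then -0.16, against 0.15 for all 527 genes.

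Of 75 genes written into a cell wall list 13 are in the table, and 8 fell in slr1- total RNA, 0 rose and 5 did not pass. Over all 527 genes 33.6% fell and 19.7% rose. The lowest were ecm33, which encodes a surface protein of the wall (-0.88 ± 0.14, edgeR adjusted p = 0.00162), rho1, the GTPase that switches on glucan synthesis (-0.72 ± 0.14, edgeR adjusted p = 0.00364), and gas2, which extends 1,3-β-glucan chains (-0.59 ± 0.15, edgeR adjusted p = 0.00843). The calls of ecm33 and rho1 held under each alternative listed in the closing section, and that of gas2 was lost with TMM factors computed without ribosomal protein genes (-0.25). The list median was -0.43 in total RNA and -0.20 in polysome RNA, against -0.36 and -0.087 for genes not of ribosomal proteins. In polysome RNA 0 of the 13 passed and 10 were negative, and the gene with the smallest p was knh2 (-0.32 ± 0.15). The count of 8 became 2 with TMM factors computed without ribosomal protein genes, where 72 of all 527 genes fell and 180 rose. It was 3 without replicate 1 of slr1- total RNA or replicate 2 of WT polysome RNA, 4 without replicate 2 of WT total RNA or replicate 1 of slr1- polysome RNA, and 5 without replicate 2 of slr1- polysome RNA.

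The vacuolar proton pump, another proton ATPase of the cell, is represented by 2 of 17 listed subunit genes, and both fell in slr1- total RNA. These were vma3, the membrane ring subunit (-0.76 ± 0.16, edgeR adjusted p = 0.00443), and vma10 (-0.68 ± 0.20, edgeR adjusted p = 0.0149). The vma10 call was lost without replicate 2 of WT (-0.29) or either replicate of slr1- (-0.62 and -0.73), and with TMM factors computed without ribosomal protein genes (-0.34). In polysome RNA neither passed (-0.19 ± 0.17 for vma3 and 0.010 ± 0.19 for vma10).

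Of 69 genes of the secretory route 10 are in the table, of which 3 fell and 1 rose in slr1- total RNA. The named ones are ypt3, a Rab GTPase of late secretion (-1.05 ± 0.17, edgeR adjusted p = 0.00162), ret3 of the vesicle coat (-0.93 ± 0.17, edgeR adjusted p = 0.00248) and sss1, a subunit of the translocation channel in the endoplasmic reticulum, which rose (0.69 ± 0.19, edgeR adjusted p = 0.0115). In total RNA the sss1 call was lost when replicate 1 was left out of slr1- (0.44) or WT (0.51). The median of the list, -0.21, was 0.12 once ribosomal protein genes were kept out of the TMM factors. That of all 527 genes was then 0.15. With those factors 3 genes rose, sss1, sar1 (0.47) and arf1 (0.57), and 2 fell, ypt3 and ret3. Over all 527 genes 180 rose and 72 fell with them. In polysome RNA 0 of the 10 passed, and sar1 of vesicle budding had the smallest p (-0.21 ± 0.14).

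For the fate of malate inside the cell, 2 of 8 listed genes are in the table. The malic enzyme gene mae2, annotated as a malate dehydrogenase, fell in slr1- total RNA (-0.55 ± 0.17, edgeR adjusted p = 0.0194). It did not pass when replicate 1 was left out of slr1- (-0.32) or WT (-0.51) total RNA, in a fit of the compared groups alone (-0.43), or with TMM factors computed without ribosomal protein genes (-0.23). The pyruvate carboxylase gene pyr1 had -0.65 ± 0.26 and did not pass (edgeR adjusted p = 0.0517). It passed when replicate 2 of WT total RNA, replicate 2 of slr1- polysome RNA or replicate 1 of WT polysome RNA was left out, in a fit of the compared groups alone, with libraries scaled by size alone and with replicate numbers crossed. In polysome RNA neither passed (-0.35 ± 0.17 for mae2 and -0.36 ± 0.25 for pyr1).

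Over the 5 lists together 17 of 33 genes fell in slr1- total RNA, 1 rose and 15 did not pass, with shares of 33.6% lower and 19.7% higher among all 527 genes. Those shares include 125 ribosomal protein genes, with a median of 0.38, and the lists hold none. Of 377 genes that are neither members nor of ribosomal proteins and have leaders under 500 bases, 159 fell and 28 rose. Nothing particular to the 5 lists is read from these counts. The lists and the 3 genes were chosen with earlier results of these data known.

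**Figure D4:**
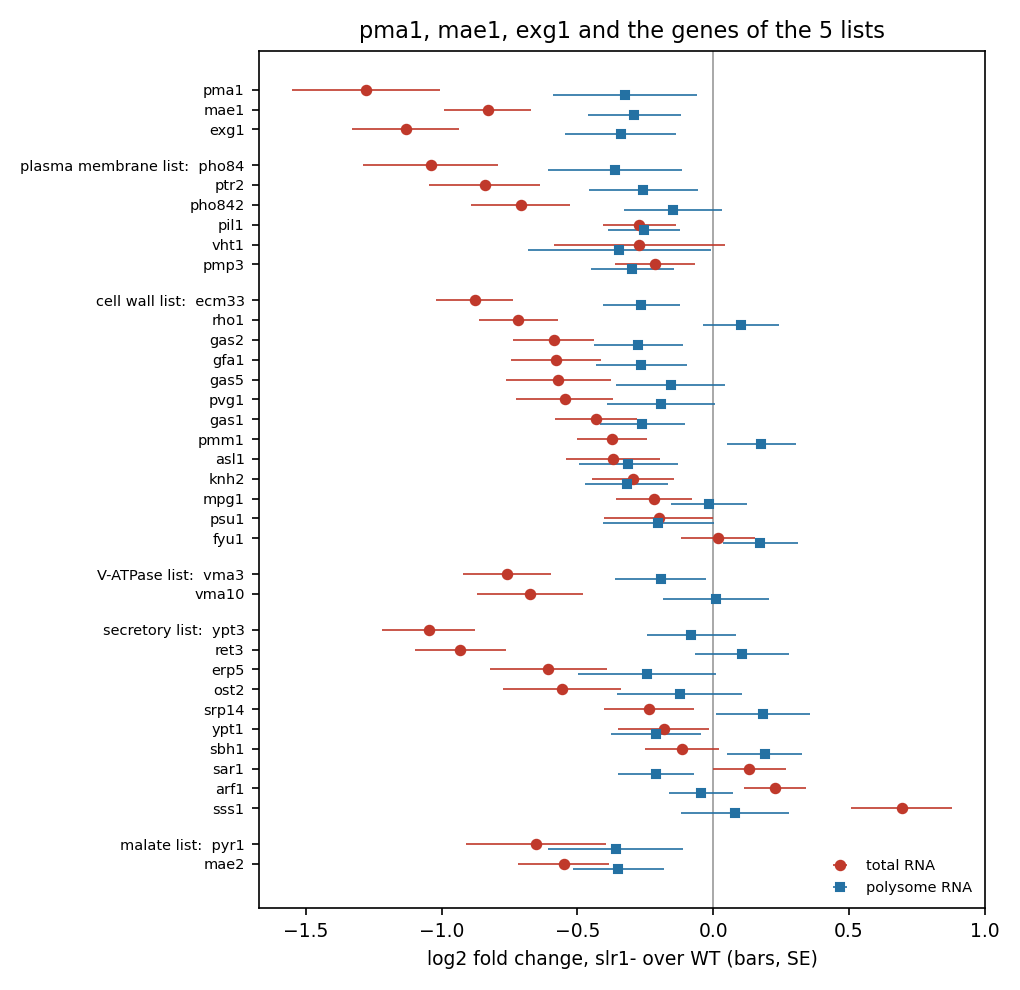
Log2 fold change of slr1- over WT in total RNA (red circles) and polysome RNA (blue squares) with bars of 1 SE, for pma1, mae1 and exg1 and for the 33 genes of the 5 lists. In total RNA the 3 genes lie between -1.28 and -0.83 and sss1 is the rightmost gene at 0.69. In polysome RNA no gene passed the test.

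Leader length was set beside the total RNA values across the listed genes. Of the 10 genes other than pma1 and exg1 with a leader of at least 500 bases, 6 fell in slr1- total RNA, 0 rose and 4 did not pass, with a median log2 fold change of -0.55. The 502 genes other than mae1 with shorter leaders had a median of -0.17, and -0.33 over the 377 of them that are not ribosomal protein genes, of which 159 fell and 28 rose. The 10 genes include ptr2 and the transcription factor genes fil1 (-0.63 ± 0.19) and sfp1 (-0.90 ± 0.16), which fell, and acs1 of acetyl-CoA synthesis, with 0.17 ± 0.22, which did not pass. In polysome RNA the 10 genes had a median of -0.26. The classes were set after the leader lengths of the 3 genes had been seen, and the figures are a description with no test.

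**Figure D5:**
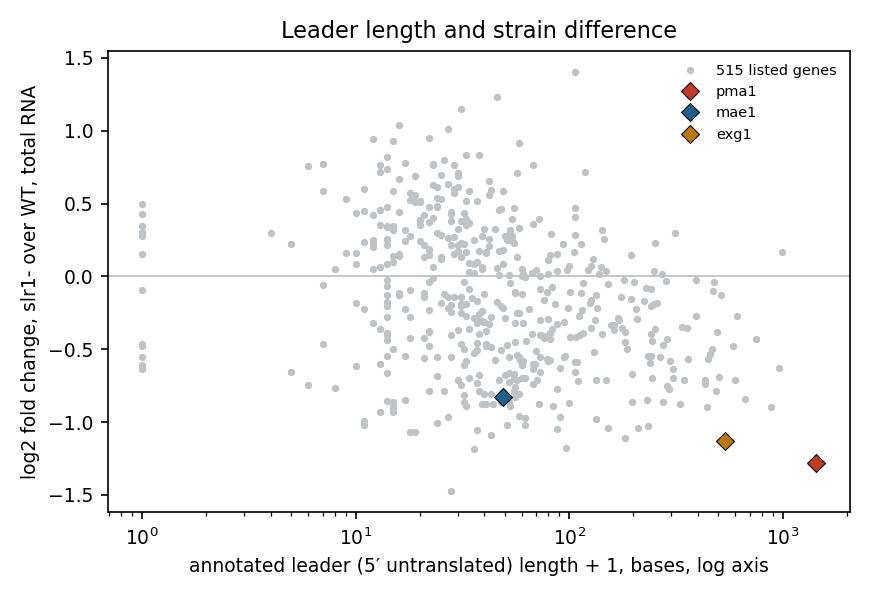
Annotated leader length plus 1 in bases (horizontal axis, log scale) and log2 fold change of slr1- over WT in total RNA (vertical axis) for 515 listed genes in grey, with pma1, mae1 and exg1 as diamonds. The pma1 leader of 1432 bases is the rightmost point, exg1 lies at 534 bases and mae1 at 48 bases.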

How the data were processed

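RNA of 8 libraries was measured by sequencing. Per the labels, RNA was taken up in TRIzol, ribosomal RNA was removed and stranded libraries were read as single 50 bp reads. Bowtie and RSEM are named in the submitters' processing notes, with no version, and the sources used here give no genome build, annotation or rule that chose the 527 genes. Count columns were deposited as whole numbers. The deposited table also gives the authors' log2 fold changes and p-values, a score of 1 or -1 for direction, and ratios of polysome to total RNA. From these only log2 fold changes and ratios are quoted. No gene was removed by count (lowest mean 161).

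The 8 libraries entered a single quasi-likelihood fit (edgeR 4.0.16, R 4.3.3, TMM factors) with a mean for each group, which leaves 4 residual degrees of freedom. The common dispersion was 0.0127. Tests were two-sided, with Benjamini-Hochberg adjustment over 527 genes and a threshold of 0.05. The SE of a log2 fold change is its size over the root of its F statistic. DESeq2 1.42.0 (without independent filtering), other scaling factors, a filter at 500 counts, fits on the compared groups, a replicate block and fits without each library were alternatives. The fit was tested on simulated counts drawn with the common dispersion for every gene. That test does not cover genes with a wider spread. Names, coordinates and sequences came from RefSeq assembly ASM294v3, which matched 515 of 527 identifiers. Replicates differed by more than counting noise in every group, so none was merged.

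The members and lists were chosen with earlier results of these data known. Named genes are the 3 members, the 3 genes most correlated with each, genes next to them in the order of change, and of each list all genes where at most 6 are present, otherwise the 3 with the largest change past the threshold, or the gene with the smallest p where none passed. Genes named for leader length were chosen after their values were seen.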

Additional observations from a re-analysis of the deposited data

How the results depend on the processing

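In total RNA all 43 values of the 3 genes under alternatives were negative. The genes were chosen by that sign in the same libraries, so the count is no support for the fall. In polysome RNA all 43 values were negative with 0 past the threshold (mae1 and exg1 have too few counts for the filter at 500). In total RNA mae1 had -1.01 where libraries were scaled by size alone, -0.50 with TMM factors computed without ribosomal protein genes and -0.70 with the compared groups only, and exg1 had -0.81 with factors computed without ribosomal protein genes. The log2 ratio of polysome to total RNA in slr1- changed sign for mae1 with sizes alone (0.073, against -0.33) and for exg1 with factors computed without ribosomal protein genes (-0.23, against 0.14). With these factors the difference of polysome to total RNA between strains was 0.27 for mae1 and 0.53 for exg1. The causes were not tested.

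Leaving out 1 library at a time, the log2 fold change in total RNA ranged between -1.67 and -0.74 for pma1, and the difference of polysome to total RNA between 0.42 and 1.34 for pma1, 0.30 and 0.63 for mae1, and 0.57 and 1.05 for exg1. The fits without a library assume that the lone library left in its group varies like the other groups.

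The 281 genes called in total RNA were 134 with genes of at least 500 counts, where fewer genes are tested, and between 127 (without replicate 1 of slr1- total RNA) and 288 without 1 library. The split of 104 higher and 177 lower was 180 and 72 with factors computed without ribosomal protein genes and 60 and 260 with library sizes alone. The 0 genes called in polysome RNA were 12 with DESeq2 and between 0 and 2 without 1 library, with 2 when replicate 1 of slr1- polysome RNA was left out.

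Of the lists in total RNA, the plasma membrane count of 3 was 5 with library sizes alone and between 0 and 3 without 1 library. The cell wall count of 8 was 2 with factors computed without ribosomal protein genes, 5 with the filter at 500, 4 with DESeq2, 4 with the compared groups and between 3 and 11 without 1 library. The V-ATPase count of 2 was 1 with factors computed without ribosomal protein genes, 1 with the filter and between 1 and 2 without 1 library. The secretory count of 4, with 1 higher and 3 lower, was 3 higher and 2 lower with factors computed without ribosomal protein genes, 0 with the filter and between 2 (without replicate 1 of slr1- total RNA) and 5 without 1 library. The malate count of 1 was 2 with library sizes alone, 0 with factors computed without ribosomal protein genes and between 0 and 2 without 1 library.

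Same-numbered libraries of the strains did not deviate together (r over genes of -0.14 in total and -0.065 in polysome RNA). Between total and polysome RNA of a strain r was 0.070 in slr1- and 0.29 in WT. Across strains it was -0.29 between WT total and slr1- polysome RNA, and -0.066 between slr1- total and WT polysome RNA. The 0.29 in WT is the highest of these values. A value of like size between different strains has the opposite sign, so it cannot decide whether WT libraries share cultures. Nothing in the labels pairs the libraries. With a replicate block 274 genes passed in total and 0 in polysome RNA, and pma1, mae1 and exg1 had -1.25, -0.83 and -1.14 in total RNA. With the numbers crossed, an alternative chosen after seeing the data, 303 and 0 passed.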
